A study of Mus musculus with 8 samples.

Results

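The Wnt pathway and the crypt stem cell program were examined through 37 genes, of 55414 gene IDs in the deposited count table. The genes were chosen by symbol, from ligands to targets, and each symbol matched 1 Ensembl ID in the GENCODE mouse annotation, release 39. RNA had been sequenced from Paneth cells, the antimicrobial secretory cells of the crypt base, purified on a cell sorter from the small intestine of WT mice. The animals had received an injection of PBS (phosphate-buffered saline, the control, 4 libraries) or of TNF (tumor necrosis factor, an inflammatory cytokine, 4 libraries) and the tissue was taken after 3 hours, so that the series asks how TNF changes Paneth cell gene expression. All libraries share the genotype, the tissue, the sort and the time. The strain given for sorted Paneth cells in the study's methods is C57BL/6J, whereas no source used here gives the age of the animals, the TNF dose or the injection route. The animal, and not the sorted cells, received TNF. The series' design text calls the libraries biological replicates and the study describes its Paneth cell samples as coming from individual mice, but the labels tie no library to an animal, and p-values below measure the spread between these libraries.

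Wnt proteins are lipid-modified by the acyltransferase Porcn and carried to the cell surface by Wls. At the receiving cell they bind Frizzled receptors with the co-receptors Lrp5 or Lrp6, which stops the destruction complex of Apc, Axin and Gsk3 from degrading β-catenin (Ctnnb1), and β-catenin then enters the nucleus and activates genes together with TCF/LEF factors. Some target genes encode inhibitors of the pathway itself, so their RNA is widely read as a record of recent signaling, and R-spondins acting through Lgr4 and Lgr5 protect the receptors from 2 such inhibitors, the ubiquitin ligases Rnf43 and Znrf3. In the crypt, Paneth cells are a source of Wnt3 and lie between the Lgr5+ stem cells, and Wnt signaling also drives Paneth cell maturation.

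Each library held 23824717 to 32576077 counts over 16712 to 19135 detected genes. TNF replicate 4 stood apart: its TMM scaling factor, which corrects the library size for differences in composition, was 0.448, against 0.995 to 1.36 in the other 7 libraries, and α-defensin (Defa) genes took 51.4% of its counts, against 32.0% to 37.9%. Values are given as normalized CPM, that is, counts relative to a library size multiplied by its TMM factor, so a low factor raises every value of a library. Over all tested genes the median was 0.03 on the log2 scale with TMM and -0.38 with library size alone, and the share of all called genes that were higher in TNF was 54.3% and 23.8%. Of all tested genes 23.3% were called higher and 19.6% lower, and these shares apply to each marker list here. Of the 12 Paneth cell markers 4 were called higher and none lower, and their summed level was 319509 to 468657 in PBS, 396929 to 467198 in TNF replicates 1 to 3 and 1242800 in TNF replicate 4 (normalized CPM). With library size alone 2 of the 12 were higher, against 5.66% of all tested genes, the calls of Pla2g2a and Nupr1 being lost. The median log2 change of the 12 was 0.68, and 0.09 without TNF replicate 4. Marker sums of other cell types were, for enteroendocrine cells (4 of 4 tested markers higher, with the call of Gcg lost under library size alone, the filter of 1 CPM, the replicate block and the omission of any 1 of 5 libraries, TNF replicate 4 among them), 9.82 to 13.0 in PBS, 33.8 to 45.2 in TNF replicates 1 to 3 and 68.2 in TNF replicate 4, and for immune cells (1 of 2 tested markers higher, the other not called) 7.31 to 13.1 in PBS, 10.8 to 14.0 in TNF replicates 1 to 3 and 68.7 in TNF replicate 4, with Cd3e, Cd79a, Adgre1 and Nkg7 at 0 counts in every library. Goblet cell markers (1 of 7 higher, 2 lower, median log2 change 0.17) summed to 7159.7 to 11189.9 in PBS, 11243 to 12029.9 in TNF replicates 1 to 3 and 25451 in TNF replicate 4. Without TNF replicate 4, 1 was higher and 3 were lower, at a median of -0.40. The 1 that was higher, Muc2, lost its edgeR call under library size alone (0.96, adjusted p = 0.0831). The fall of the goblet cell marker Clca1 (-2.55, adjusted p = 0.0295) owed its size to PBS replicate 1, at 554 normalized CPM against 41.1 to 44.0 in the other PBS libraries, and without it the estimate was -0.60, adjusted p = 0.0286. Its call was lost with limma-voom (-1.53, adjusted p = 0.102), with the replicate block (-1.33, adjusted p = 0.193) and without TNF replicate 1, 2 or 3 (adjusted p = 0.0551 to 0.0651). Tuft cell markers (0 of 3 called by edgeR) summed to 11.9 to 27.3 in PBS, 7.58 to 14.7 in TNF replicates 1 to 3 and 52.9 in TNF replicate 4. Cycling cell markers summed to 157 to 192 in PBS, 128 to 170.1 in TNF replicates 1 to 3 and 142 in TNF replicate 4, with 1 of 6 lower, and enterocyte markers to 250.4 to 276 in PBS, 283 to 296 in TNF replicates 1 to 3 and 266 in TNF replicate 4, although 7 of the 8 enterocyte markers had negative estimates (median log2 change -0.74, 1 lower and none higher, and 3 lower and 1 higher without TNF replicate 4). Stroma markers (the 1 tested, Vim, was higher) summed to 0.223 to 0.453 in PBS, 1.23 to 1.73 in TNF replicates 1 to 3 and 1.29 in TNF replicate 4, with Col1a2 and Col3a1 at 0 counts. Of these called markers, Tac1 (enteroendocrine) and Vim passed the filter on low counts only through their TNF libraries and Apoa4 (enterocyte) only through its PBS libraries, so their directions were set by the filter. The part of these shifts in the results below was not tested.

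After TNF, 14 of the 37 genes were lower and 7 were higher. All 5 feedback inhibitors (Rnf43, Znrf3, Axin2, Nkd1 and Notum) fell, from 1.80-fold for Znrf3 to 13.9-fold for Notum, as did the stem cell genes Lgr5, Ascl2, Tnfrsf19 and Smoc2, the ligand Wnt3, the receptors Lgr4 and Fzd5, and the nuclear factors Bcl9l and Lef1. Cd44, Myc, Ephb2, Lrp5, Apc, Tcf7l2 and Bcl9 rose. Of the 37 genes, 34 passed the filter on low counts, and with the quasi-likelihood test of edgeR at an adjusted p under 0.05 the share of these that was called was 61.8%, against 43.0% of all 13368 tested genes. By direction, 14 of 34 were lower against 19.6% of all tested genes and 7 of 34 were higher against 23.3%. Of the 34 tested genes, 21 (61.8%), the called ones, had 4 TNF values that did not overlap the 4 PBS values. This separation was found for 42.1% of all tested genes in either direction. The median log2 fold change of the 34 genes was -0.24. Notum and Lef1 passed the filter only through their PBS libraries, where they were higher, so their direction was set by the filter and their falls are a description. Over the 32 genes that passed in both groups, 12 were lower (37.5%) and 7 higher (21.9%), against 18.8% and 24.8% of the 11572 genes of all that did so, and the median was -0.18. The other 4 feedback inhibitors were among the 12. With library size alone 12 were lower, against 18.1% of all tested genes, and 1, Cd44, was higher, against 5.66%, and their median was -0.59. Without TNF replicate 4, all 21 calls were kept and Axin1 and Sp5 were added, giving 14 lower and 9 higher of the 34 genes, against 23.8% lower and 26.6% higher of all genes tested in that fit. Relative to the median of all tested genes, the median of the 34 was -0.26 with TMM and -0.21 with library size alone.

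**Figure D1:**
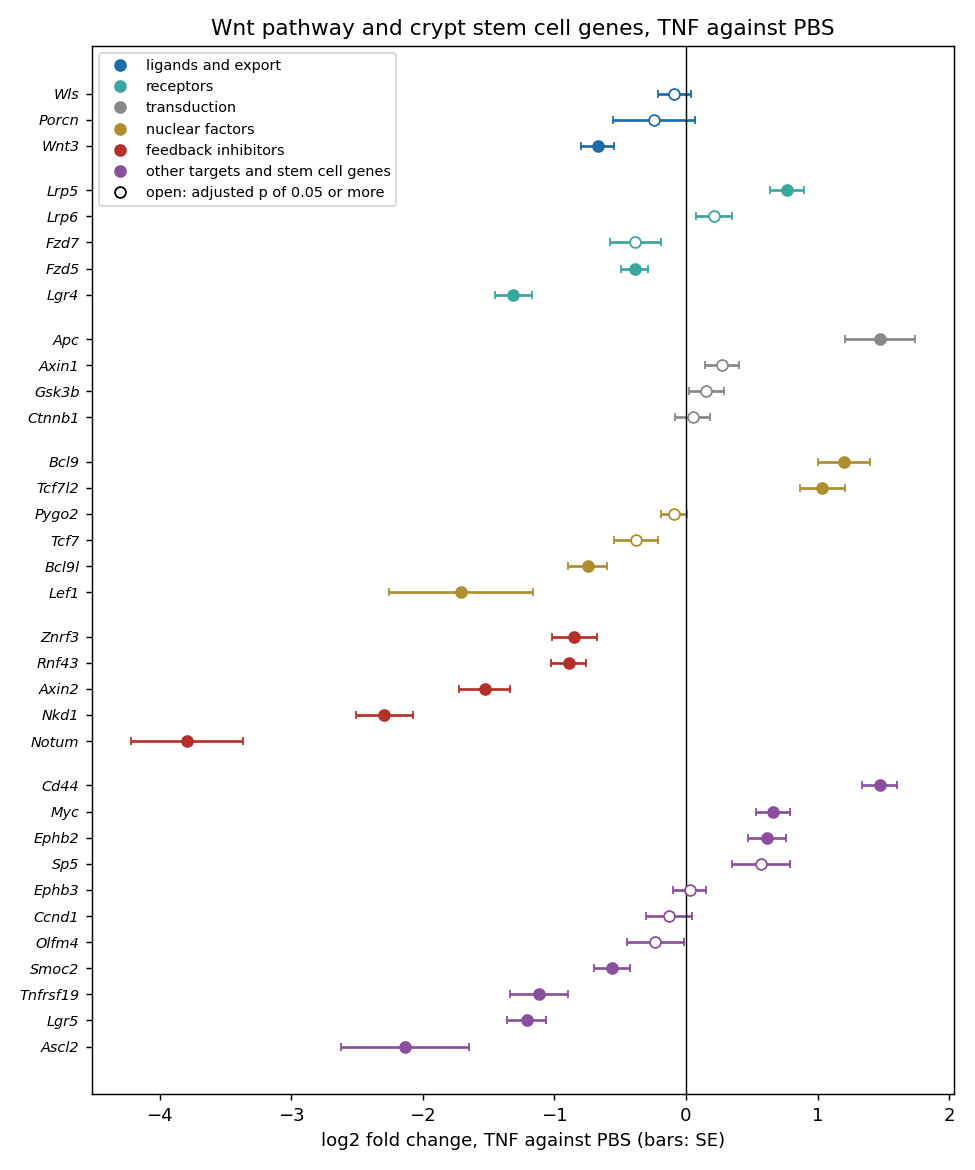
Log2 fold change, TNF against PBS, of the 34 tested genes, grouped by role and ordered by value. Points are edgeR estimates from 4 TNF and 4 PBS libraries, bars are SE, and open points had an adjusted p of 0.05 or more; all 5 feedback inhibitors lie left of 0, whereas receptors, nuclear factors and the other targets lie on both sides.

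Notum and Nkd1 had the lowest estimates of the 37 genes over all 8 libraries with TMM, whereas Ascl2, a stem cell gene, was below Nkd1 without TNF replicate 4 (-2.65 against -2.15 on the log2 scale) and with library size alone (-2.66 against -2.63). Nkd1 (naked cuticle 1, ENSMUSG00000031661), which binds Dishevelled and dampens the signal inside the cell, was at 16.4, 21.2, 24.2 and 23.3 normalized CPM in PBS replicates 1 to 4 and 3.76, 4.43, 6.0 and 2.84 in TNF replicates 1 to 4. Its highest TNF value was below its lowest PBS value by more than the range of either group, and the log2 fold change was -2.29 (SE 0.21, adjusted p = 1.40e-05). Notum, a secreted enzyme that removes the lipid from Wnt proteins, was scarce, with raw counts of 92, 48, 55 and 89 in PBS and 3, 1, 6 and 4 in TNF. In normalized CPM these were 2.47, 1.79, 2.17 and 2.01 in PBS and 0.107, 0.0346, 0.211 and 0.344 in TNF, and the log2 fold change was -3.79 (SE 0.42, adjusted p = 4.68e-05). TNF replicates 1 and 2 were at 3 counts or fewer, so the size of this fall is loosely set by counting. Axin2, a scaffold of the destruction complex and the most used reporter of Wnt/β-catenin signaling, was at 49.5, 44.9, 47.4 and 56.2 normalized CPM in PBS replicates 1 to 4 and 25.2, 13.4, 15 and 14.9 in TNF replicates 1 to 4. TNF replicate 1 was the highest of its group and still lay below every PBS library, and Axin2 fell by 1.53 on the log2 scale (SE 0.19, adjusted p = 1.10e-04).

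The ubiquitin ligases Rnf43 and Znrf3, which remove Frizzled receptors from the membrane, fell less. For Rnf43 the values were 40.2, 41.6, 39.6 and 50.2 in PBS and 27.1, 19.8, 23.2 and 22.3 in TNF, and the groups were separate, at a log2 change of -0.89 (SE 0.13, adjusted p = 2.91e-04). For Znrf3 they were 14.4, 12.9, 14.6 and 20.5 in PBS and 9.62, 8.21, 9.62 and 7.13 in TNF, with a log2 change of -0.85 (SE 0.17, adjusted p = 0.00215), and PBS replicate 4 was the highest of all 8 libraries. The 5 falls kept their edgeR, DESeq2 or limma-voom call under each of the 16 other analyses, including the fit without TNF replicate 4 (log2 fold changes of -0.76 to -4.11) and scaling by library size alone (-1.22 to -4.21). A ratio of counts within a library needs no scaling: per 100 counts of Ctnnb1, the 5 genes together had 31.8 to 42.6 in PBS and 10.9 to 16.9 in TNF.

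**Figure D2:**
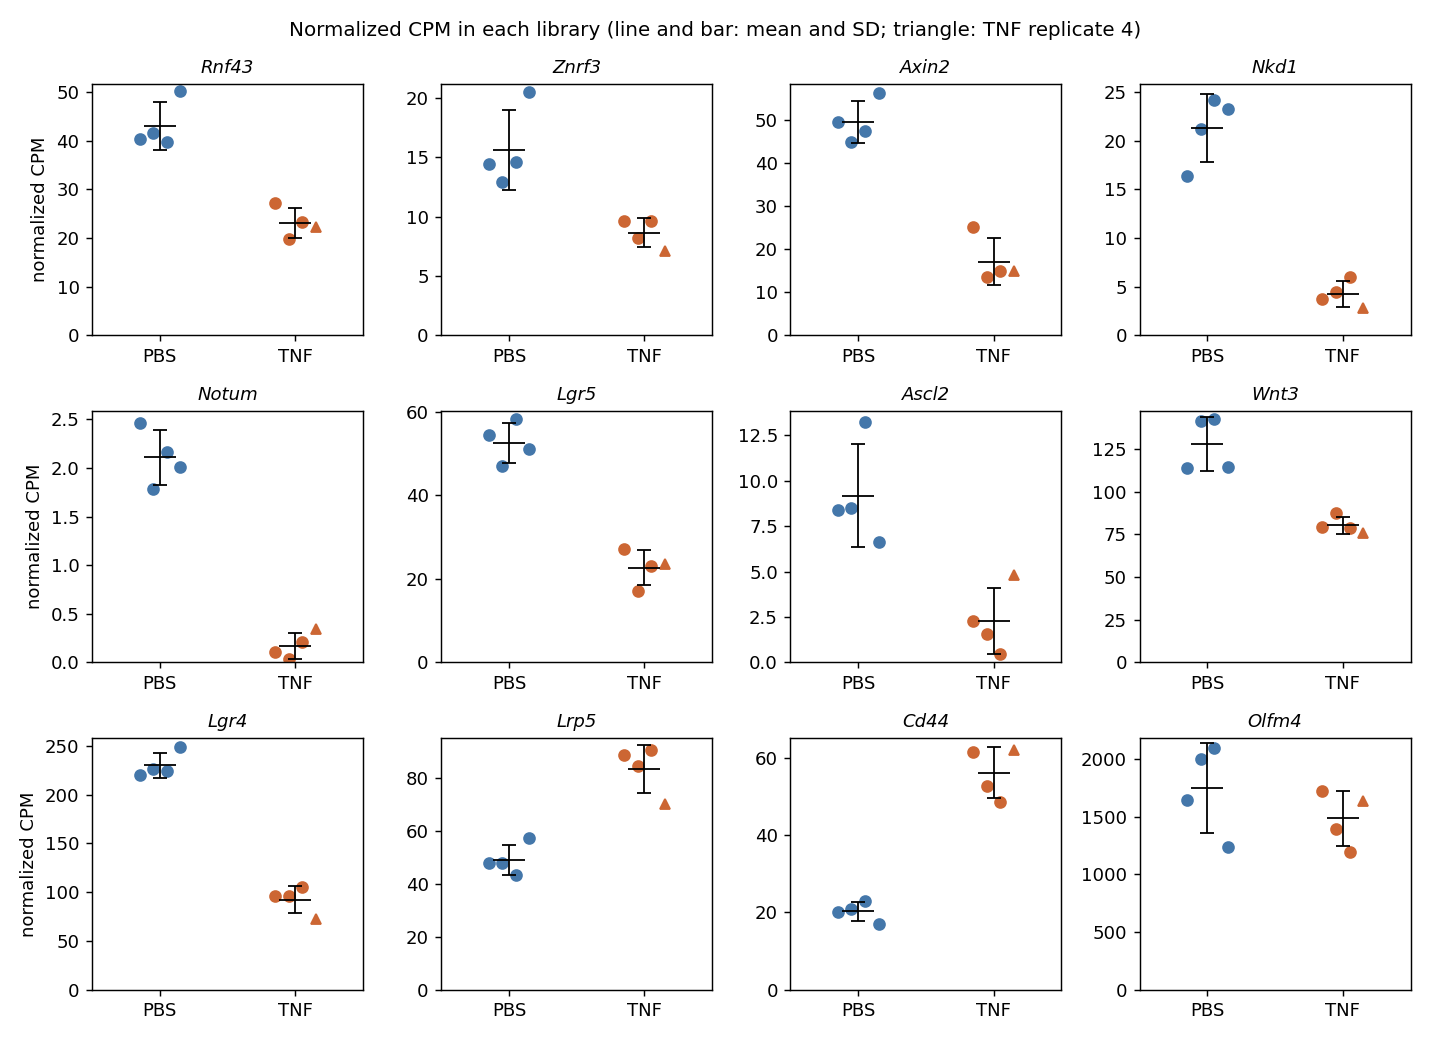
Normalized CPM of 12 of the genes in each of the 8 libraries, with every axis starting at 0. Points are single libraries, with TNF replicate 4 as a triangle, and the line and bar are the mean and SD of 4 libraries; in 11 panels the PBS and TNF points do not overlap, and for Olfm4 they do.

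TCF/LEF factors recognise a short DNA motif with the core CTTTGA, so the windows around the transcription start (250 bases before to 50 after, 300 in all, GENCODE canonical transcript on GRCm39) were searched for these letters on both strands, as CTTTGA or TCAAAG. Of the genes called lower, 3 of 14 held it, and these were Axin2, Nkd1 and Notum. Their upstream sequences are shown because they carry the motif close before the start of the 3 feedback inhibitors that fell most. Each runs 5′ to 3′ on the gene's strand from 100 bases before the start to the base before it, with the motif in capitals: for Nkd1 chr8:89247825-89247924 (plus strand), for Notum chr11:120552020-120552119 (minus strand) and for Axin2 chr11:108811538-108811637 (plus strand).
Nkd1: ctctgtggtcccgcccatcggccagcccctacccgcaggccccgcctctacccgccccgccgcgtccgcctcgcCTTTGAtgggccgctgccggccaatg
Notum: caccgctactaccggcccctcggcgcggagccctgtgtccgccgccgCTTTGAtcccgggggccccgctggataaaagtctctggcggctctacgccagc
Axin2: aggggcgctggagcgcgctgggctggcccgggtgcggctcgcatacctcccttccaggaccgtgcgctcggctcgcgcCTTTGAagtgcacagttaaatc
The motif begins at position -26 in Nkd1, -53 in Notum and -22 in Axin2, in each case on the strand of the gene. Sp5, a Wnt target that did not fall, held 2 copies, at positions -204 and -104, and is shown as the contrast, chosen after its values were seen (chr2:70305017-70305216, plus strand, 250 to 51 bases before the start).
Sp5: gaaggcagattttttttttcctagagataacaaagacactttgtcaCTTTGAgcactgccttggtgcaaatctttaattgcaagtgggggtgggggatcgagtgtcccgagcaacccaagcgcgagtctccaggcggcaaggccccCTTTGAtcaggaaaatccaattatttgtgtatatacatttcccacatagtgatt
The motif was present in 3519 of 21770 protein-coding windows (16.2%), in 13.2% of those of tested genes, in 12.5% of genes called lower and in 12.8% of genes called higher. Among the 37 genes 9 held it (24.3%), of which 3 were called lower and none higher, 5 were tested and not called (Lrp6, Gsk3b, Sp5, Ccnd1 and Olfm4), and Tcf7l1 was not tested. A match of letters is not a bound site.

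The other 11 target and stem cell genes split, with 4 lower (36.4%, against 19.6% of all tested genes), 3 higher (27.3%, against 23.3%) and 4 not called, and a median log2 fold change of -0.13. The 4 that fell are all used as markers of crypt base stem cells. Lgr5, the R-spondin receptor that defines these cells, was at 54.4, 46.9, 58.2 and 51.0 normalized CPM in PBS replicates 1 to 4 and 27.2, 17.1, 23.1 and 23.5 in TNF replicates 1 to 4, so no TNF library reached the lowest PBS library, and its log2 fold change was -1.21 (SE 0.15, adjusted p = 8.41e-05). Ascl2, a transcription factor that maintains the stem cell state, was at 8.39, 8.52, 13.2 and 6.61 in PBS and 2.27, 1.56, 0.492 and 4.81 in TNF. TNF replicate 4 was its highest TNF library, close under the lowest PBS library, and the log2 fold change was -2.13 (SE 0.48, adjusted p = 0.00468) with it and -2.65 without it (adjusted p = 1.51e-04). Tnfrsf19 (Troy), a receptor of the TNF receptor superfamily that marks stem cells, was at 6.62, 7.92, 10.4 and 6.07 in PBS and 4.40, 2.56, 3.48 and 3.87 in TNF, with a log2 change of -1.12 (SE 0.22, adjusted p = 0.00197). Smoc2, a secreted matrix protein, fell by 0.56 on the log2 scale (SE 0.14, adjusted p = 0.00685), with means of 121 ± 13.4 in PBS and 82.0 ± 11 in TNF (SD, n = 4). Its call was lost under library size alone (-0.90, adjusted p = 0.0629). Olfm4, the most abundant of the 37 genes and also a stem cell marker, was at 1647, 1997, 2096 and 1235 in PBS and 1717, 1391, 1193 and 1637 in TNF. The groups overlapped, and its log2 fold change of -0.23 (SE 0.22, adjusted p = 0.419) was not called. In RNA from bulk cells, fewer cells of a type and less RNA per cell cannot be told apart. The study's methods describe the sorted Paneth cells as almost free of other cells, and the share of stem cells in these libraries was not tested.

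A further 16 genes used as stem cell markers or regulators were read from another list, which overlaps the Wnt target list described below (Rgmb is in both). Of the 15 tested, 10 were lower and none higher, with a median log2 fold change of -0.46, against 19.6% lower and 23.3% higher of all tested genes. With library size alone 5 were lower and none higher, against 18.1% lower and 5.66% higher of all tested genes. Without shared genes, 11 of the list passed the filter in both groups. Of these, 7 were lower (63.6%) and none higher, with a median of -0.37. The shares of all genes that passed in both groups were 18.8% lower and 24.8% higher. The genes of the whole list with the smallest p were Rgmb, Tert and Hopx. Rgmb, a BMP co-receptor, was at 115 to 142 in PBS and 22.2 to 35.6 in TNF, with a log2 change of -2.18 (SE 0.17, adjusted p = 3.84e-06). Hopx, a homeodomain protein of reserve stem cells, was at 93.0 to 118 in PBS and 46.3 to 78.5 in TNF, with a log2 change of -0.96 (SE 0.18, adjusted p = 0.00153). Tert, the catalytic subunit of telomerase, had raw counts of 39, 24, 10 and 38 in PBS and 5, 3, 1 and 0 in TNF and a log2 change of -3.09 (SE 0.55, adjusted p = 0.00112). Tert passed the filter only through its PBS libraries, which fixed its direction, so this change is a description and is no support for the count above. Without TNF replicate 1, the highest of its group, the estimate for Tert was -3.74, adjusted p = 0.00140.

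The 3 targets that rose were Cd44, Myc and Ephb2. Cd44, the hyaluronan receptor, was at 20.1, 20.9, 23.0 and 17.0 normalized CPM in PBS replicates 1 to 4 and 61.5, 52.7, 48.5 and 62.0 in TNF replicates 1 to 4. Every TNF library was more than 2 times the highest PBS library, and its log2 fold change of 1.47 (SE 0.13, adjusted p = 1.02e-05) was also called under library size alone (1.08, adjusted p = 0.0185). Myc, the growth-promoting transcription factor, was at 28.9, 26.1, 30.9 and 26.6 in PBS and 50.9, 48.7, 42.0 and 35.8 in TNF. The groups were separate, with TNF replicate 4 the lowest of its group, and the log2 fold change was 0.66 (SE 0.13, adjusted p = 0.00208). Ephb2, a receptor tyrosine kinase that positions cells along the crypt, was at 46.4, 39.8, 44.5 and 46.1 in PBS and 69.3, 73.5, 78.2 and 49.7 in TNF, again with TNF replicate 4 the lowest of its group, and its log2 change was 0.62 (SE 0.14, adjusted p = 0.00568). Neither call was kept under library size alone (Myc 0.32, adjusted p = 0.533; Ephb2 0.28, adjusted p = 0.601). Ephb3, a relative of Ephb2, was at 125 ± 6.43 in PBS and 127 ± 15 in TNF (SD, n = 4), and the cell cycle gene Ccnd1, encoding cyclin D1, at 34.2 ± 5.82 in PBS and 31.2 ± 6.96 in TNF, with log2 fold changes of 0.03 (SE 0.12, adjusted p = 0.880) and -0.13 (SE 0.18, adjusted p = 0.589). Sp5, a transcription factor induced by Wnt in many tissues, was at 3.78, 3.5, 5.72 and 2.90 in PBS and 6.04, 6.89, 5.86 and 4.47 in TNF. PBS replicate 3 overlapped the TNF group, and the log2 fold change of 0.57 (SE 0.22, adjusted p = 0.0585) was not called, but it was called by limma-voom (0.66, adjusted p = 0.0248) and by edgeR without PBS replicate 3 (0.79, adjusted p = 0.0112) or without TNF replicate 4 (0.69, adjusted p = 0.0171).

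**Figure D3:**
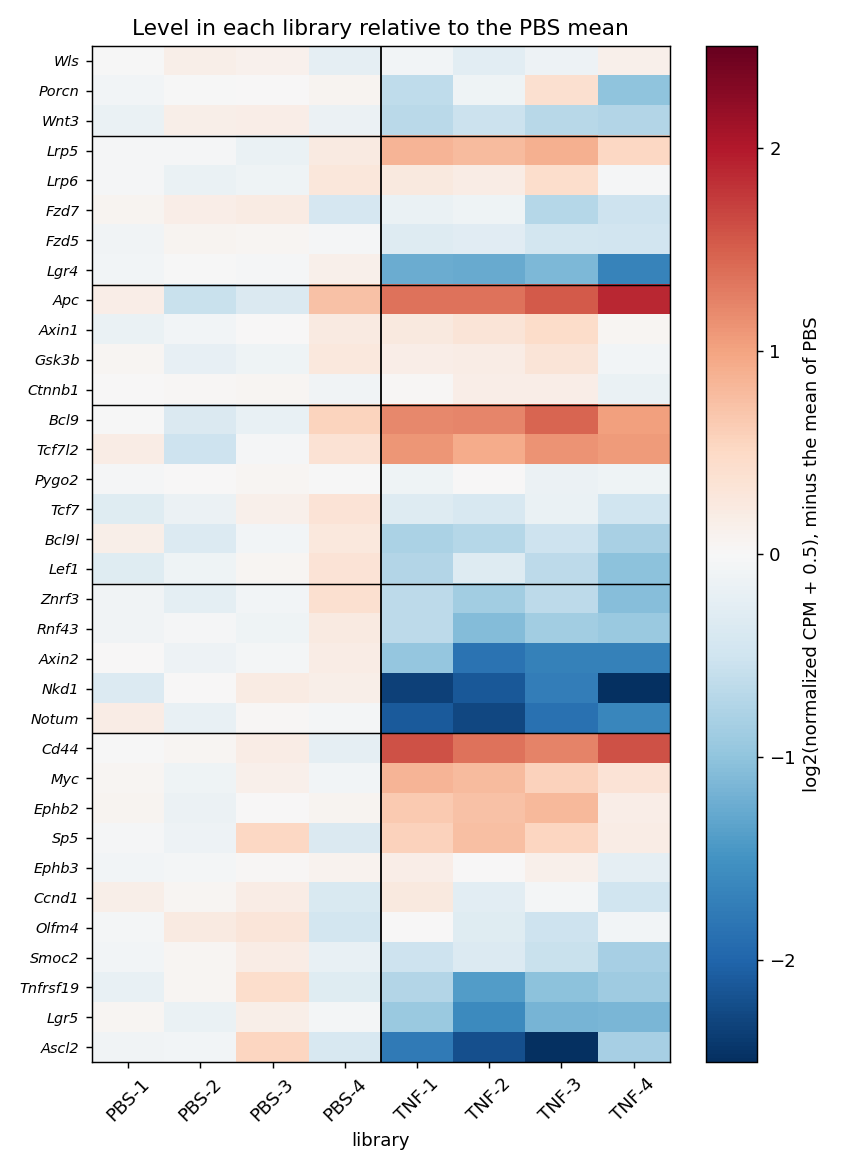
Level of the 34 tested genes in each library, as log2 of normalized CPM + 0.5 minus the mean of the 4 PBS libraries, with colours held at 2.5 in either direction and lines between roles. The feedback inhibitors are blue in all 4 TNF libraries, the targets and stem cell genes run from red (Cd44) to blue (Ascl2), and TNF replicate 4 is lighter than the other TNF libraries for Ascl2, Myc and Ephb2.

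Wnt3 was the only Wnt ligand of the 3 in the set with a substantial count. It was at 114, 141, 142 and 114 normalized CPM in PBS replicates 1 to 4 and 79.1, 87.4, 78.8 and 75.9 in TNF replicates 1 to 4, and all 4 TNF libraries lay below all PBS libraries. Wnt3 fell by 0.67 on the log2 scale (SE 0.12, adjusted p = 0.00137). Wnt9b had raw counts of 25, 21, 8 and 25 in PBS and 8, 4, 9 and 0 in TNF and did not pass the filter. TNF replicate 4 had 0 counts, which allows a level of up to 0.258 normalized CPM at a limit of 3 counts. Without that library Wnt9b entered the test through its PBS counts alone, so no test result is given. Wnt6 had raw counts of 1, 0, 0 and 5 in PBS and 1, 0, 0 and 0 in TNF and was not tested. The export genes did not pass the test: Wls was at 51.1, 57.2, 55.4 and 43.8 in PBS and 48.9, 42.8, 47.3 and 56.0 in TNF, with a log2 change of -0.09 (SE 0.13, adjusted p = 0.591), and Porcn had a log2 change of -0.24 (SE 0.31, adjusted p = 0.562). Thus the ligand fell while the RNA of its export factor, Wls, differed by less than the spread between libraries.

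The 5 receptors went in both directions, with 1 higher (20%, against 23.3% of all tested genes), 2 lower (40%, against 19.6%) and 2 not called. Lgr4, the receptor through which R-spondins act in most epithelial cells, was at 219.8, 227, 224 and 249 normalized CPM in PBS replicates 1 to 4 and 96.5, 95.7, 105 and 72.1 in TNF replicates 1 to 4. All TNF libraries were below the PBS range by more than the width of that range, and the log2 fold change was -1.31 (SE 0.14, adjusted p = 3.51e-05). Fzd5, the Frizzled receptor known for Paneth cell maturation, was at 19.9, 22.4, 21.9 and 20.9 in PBS and 16.9, 17.4, 15.4 and 15.1 in TNF, with a log2 change of -0.39 (SE 0.10, adjusted p = 0.0113), which was not called under library size alone (-0.76, adjusted p = 0.0969). Fzd7, the Frizzled receptor of the stem cells, was at 10.7, 11.5, 11.8 and 7.52 in PBS and 9.13, 9.49, 6.04 and 6.96 in TNF, with a log2 change of -0.38 (SE 0.19, adjusted p = 0.130), and it was called lower without PBS replicate 4 (-0.55, adjusted p = 0.0314). The co-receptor Lrp5 was at 47.8, 47.8, 43.2 and 57.1 in PBS and 88.5, 84.5, 90.6 and 70.3 in TNF. The groups were separate and the log2 fold change was 0.77 (SE 0.13, adjusted p = 7.09e-04), but under library size alone it was 0.41 and not called (adjusted p = 0.416). The related co-receptor Lrp6 was at 33.8 ± 5.0 in PBS and 39.1 ± 5.22 in TNF (SD, n = 4), with a log2 change of 0.21 (SE 0.14, adjusted p = 0.241).

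Ligands, export factors and receptors were set against feedback, target and stem cell genes. Of the 10 genes in the former set, 8 were tested, 3 were lower (37.5%, against 19.6% of all tested genes) and 1 was higher (12.5%, against 23.3%), and their median log2 fold change was -0.31. Of the 16 in the latter, all were tested, 9 were lower (56.2%) and 3 were higher (18.8%), with a median of -0.70. With Lgr5 counted among the receptors, the latter set had 8 lower genes. Within the latter, the feedback inhibitors had a median of -1.53 and the other 11 genes one of -0.13. Notum, in the latter set, passed the filter only through its PBS libraries, which fixed its direction. Over the 15 genes of that set that passed in both groups, 8 were lower (53.3%) and 3 higher (20%), with a median of -0.56. The shares of all genes that did so were 18.8% and 24.8%. The 4 feedback inhibitors among the 15 had a median of -1.21. The sets were chosen by function and their difference was not tested. Per 100 counts of Ctnnb1, Wnt3 had 29.9 to 36.7 in PBS and 18.6 to 22.5 in TNF and Lgr4 56.9 to 69.7 in PBS and 21.4 to 24.9 in TNF. For Lgr5 this ratio was 12.2 to 14.8 in PBS and 4.05 to 7.0 in TNF, for Myc 6.78 to 7.85 in PBS and 9.93 to 13.1 in TNF and for Cd44 4.77 to 5.83 in PBS and 11.5 to 18.4 in TNF, and these directions relative to Ctnnb1 involve no scaling factor.

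Of the 4 cytoplasmic transducers 1, Apc, was called higher (25%, against 23.3% of all tested genes) and none lower by edgeR. Apc, the scaffold whose loss activates the pathway in intestinal tumors, was at 30.3, 18.1, 20.9 and 45.1 normalized CPM in PBS replicates 1 to 4 and 69.8, 70.0, 79.1 and 100.2 in TNF replicates 1 to 4. The highest PBS library was more than 2 times the lowest, PBS replicate 4 being the highest, and all TNF libraries were above them, at a log2 change of 1.47 (SE 0.26, adjusted p = 0.00112). The call was lost under library size alone (0.97, adjusted p = 0.0710). Ctnnb1, β-catenin itself, was at 379 ± 15.4 in PBS and 393 ± 40.4 in TNF (SD, n = 4), with a log2 change of 0.05 (SE 0.13, adjusted p = 0.783), the kinase Gsk3b at 32.0 ± 4.69 in PBS and 35.6 ± 3.94 in TNF, with a log2 change of 0.16 (SE 0.13, adjusted p = 0.372), and Axin1, the constitutive partner of Axin2, at 21.4 ± 2.51 in PBS and 25.7 ± 3.11 in TNF, with a log2 change of 0.27 (SE 0.13, adjusted p = 0.111). Axin1 was called higher without TNF replicate 4 (0.35, adjusted p = 0.0213), and its estimate was below 0 with library size alone (-0.09, adjusted p = 0.868).

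Of the 6 tested nuclear factors 2 were higher and 2 lower (33.3% each, against 23.3% and 19.6% of all tested genes). Lef1, 1 of the 2 lower, passed the filter only through its PBS libraries, which fixed its direction. Of the 5 that passed in both groups, 2 were higher (40%) and 1 lower (20%), against 24.8% and 18.8% of all genes that did so. Tcf7l2, the main TCF factor of the intestinal epithelium, was at 19.1, 11.5, 16.5 and 21.6 in PBS and 36.4, 32.4, 36.9 and 35.7 in TNF. All TNF libraries were above PBS, with a log2 change of 1.04 (SE 0.17, adjusted p = 7.10e-04), whereas its relative Tcf7 had a log2 change of -0.38 (SE 0.17, adjusted p = 0.0876) and was called lower without PBS replicate 1 (-0.51, adjusted p = 0.0443). Lef1, of the same family, had raw counts of 12, 12, 14 and 35 in PBS and 3, 9, 4 and 0 in TNF and an estimate of -1.71 (SE 0.54, adjusted p = 0.0262). This call was the least stable of the 21. It was lost without PBS replicate 3 (-1.70, adjusted p = 0.0538), PBS replicate 4 (-1.43, adjusted p = 0.0788), TNF replicate 1 (-1.55, adjusted p = 0.0754) or TNF replicate 3 (-1.64, adjusted p = 0.0672), and without TNF replicate 2 the log2 estimate was -2.39, adjusted p = 0.0129. Tcf7l1, with raw counts of 15, 4, 7 and 12 in PBS and 8, 8, 10 and 4 in TNF, was not tested.

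The paralogs Bcl9 and Bcl9l, adaptors that tie β-catenin to Pygo proteins, moved apart. Bcl9 was at 47.4, 36.6, 41.5 and 70.2 in PBS and 110.2, 111, 131 and 96.5 in TNF, with a log2 change of 1.20 (SE 0.20, adjusted p = 6.74e-04). Bcl9l was at 25.1, 17.7, 21.5 and 27.5 in PBS and 12.9, 13.6, 15.6 and 12.6 in TNF, with a log2 change of -0.75 (SE 0.15, adjusted p = 0.00222). In both genes PBS replicate 4 was the highest PBS library and the groups were separate. Pygo2 was at 17.1 ± 0.361 in PBS and 16.0 ± 0.777 in TNF (SD, n = 4), with a log2 change of -0.09 (SE 0.10, adjusted p = 0.480). Bcl9 and Tcf7l2 kept their direction but not their call under library size alone (Bcl9 0.81, adjusted p = 0.137; Tcf7l2 0.62, adjusted p = 0.213), and Bcl9l kept both (-1.14, adjusted p = 0.0297). Gene models of Ctnnb1, Bcl9, Bcl9l, Lgr5 and Ccnd1 overlap that of another protein-coding gene, and no source used here says whether strand was used in counting, so their counts may include reads of the neighbour.

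**Figure D4:**
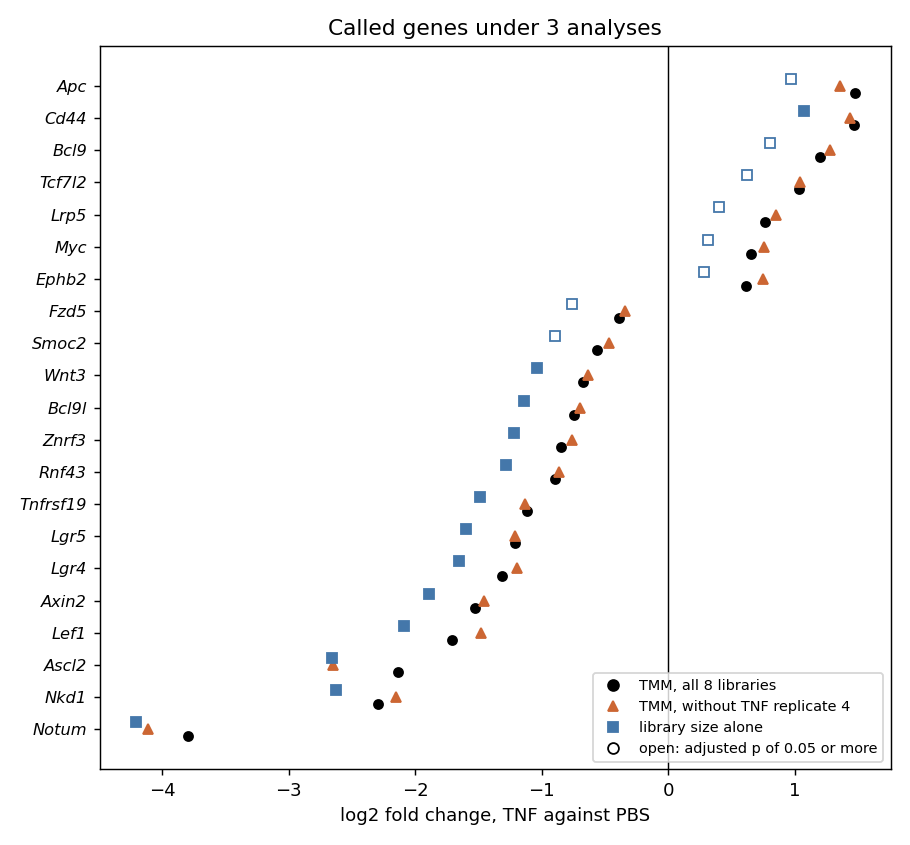
Log2 fold change of the 21 called genes with TMM scaling over all 8 libraries (circles), with TMM scaling without TNF replicate 4 (triangles) and with library size alone (squares), open where the adjusted p was 0.05 or more. Squares lie left of circles for all genes, 6 of the 7 genes that were higher are open under library size alone, and triangles stay close to circles apart from Ascl2, Notum and Lef1.

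Levels per transcript length place the genes on a common scale, normalized CPM per kb of the canonical transcript (mean ± SD, n = 4). In PBS, Olfm4 was the highest at 623 ± 139, followed by Ctnnb1 at 104 ± 4.24. Lgr4 at 44.1 ± 2.53, Smoc2 at 42.6 ± 4.72 and Wnt3 at 40.6 ± 5.10 came next and did not differ beyond their spread. Ephb3 stood at 29.8 ± 1.53, and Axin2 (11.2 ± 1.09), Lgr5 (11.2 ± 1.02) and Rnf43 (10.6 ± 1.21) were again within each other's spread. At the low end were Notum (0.753 ± 0.102), Lef1 (0.207 ± 0.0784), Wnt9b (0.129 ± 0.0440), Tcf7l1 and Wnt6. In TNF, Axin2 moved from rank 9 to 22 of the 37 genes (3.87 ± 1.22) and Nkd1 from 15 to 29 (1.38 ± 0.432). Lgr4 went from rank 3 to 7 (17.7 ± 2.73), whereas Cd44 went from 22 to 11 (9.93 ± 1.18). Olfm4 and Ctnnb1 stayed at ranks 1 and 2.

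**Figure D5:**
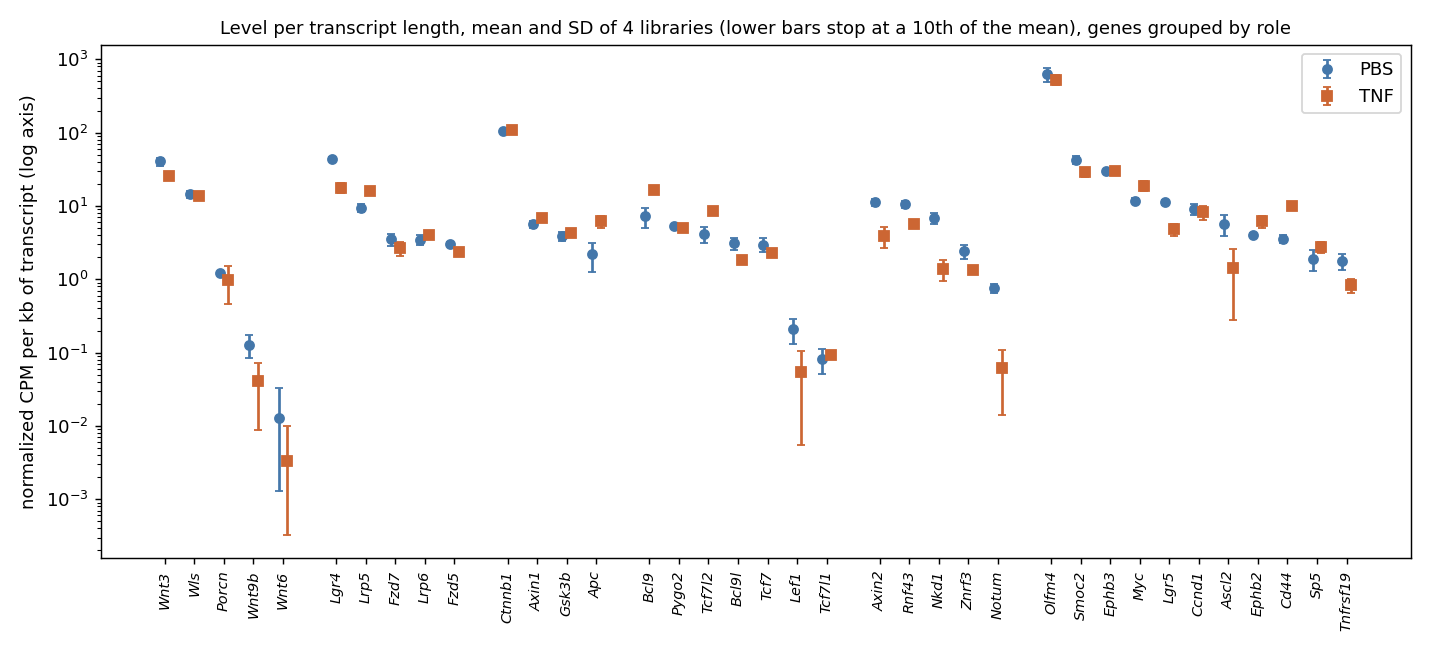
Mean normalized CPM per kb of transcript of the 37 genes in PBS (circles) and TNF (squares), on a log axis, grouped by role and ordered by the PBS level. Bars are the SD of 4 libraries, with lower bars held at a 10th of the mean; Olfm4 and Ctnnb1 are the highest genes in both groups, and Notum shows the widest gap between the groups.

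The wider pathway was read from 111 other genes of the Wnt system, of which 79 were tested, 25 were lower (31.6%, against 19.6% of all tested genes) and 19 higher (24.1%, against 23.3%), with a median log2 fold change of -0.02. Among the lower genes, Wnt5a, Wnt9a, Fzd2, Sfrp5 and Edn1 passed the filter only through their PBS libraries. Among the higher genes, Fosl1 passed only through its TNF libraries. The filter favoured the direction of these genes, and the shares above count them. The shares of all tested genes, 23.3% higher and 19.6% lower, apply to each class below. By class, 1 of 4 tested ligands was higher and 2 were lower, and 7 of the 16 listed ligands, Wnt1, Wnt3a, Wnt4, Wnt7a, Wnt8a, Wnt8b and Wnt16, had 0 counts in every library. Wnt5a, a ligand of the noncanonical branch made mostly outside the epithelium, was at 1.31 to 2.80 in PBS and 0.0859 to 0.320 in TNF (range of normalized CPM), with a log2 change of -3.28 (SE 0.40, adjusted p = 8.31e-05). Wnt9a had a log2 change of -2.29 (SE 0.49, adjusted p = 0.00346) and Wnt10a one of 2.03 (SE 0.45, adjusted p = 0.00430). Wnt5a and Wnt9a, the 2 that were lower, passed the filter only through their PBS libraries, so their direction was set by it. Of 11 tested receptors and R-spondins 2 were higher and 4 lower, and Rspo1, Rspo2 and Rspo3, which stromal cells make, had 0 counts throughout. Without Fzd2, 10 passed the filter in both groups, with 2 higher (20%) and 3 lower (30%). The shares of all genes that did so were 24.8% and 18.8%. Fzd9 was at 45.9 to 63.2 in PBS and 12.0 to 18.3 in TNF, with a log2 change of -1.81 (SE 0.16, adjusted p = 9.33e-06), the co-receptor Lrp4 at 12.1 to 17.6 in PBS and 2.32 to 4.47 in TNF, with a log2 change of -2.02 (SE 0.23, adjusted p = 5.83e-05), and Ror2, a receptor of noncanonical Wnt ligands, at 9.57 to 13.4 in PBS and 25.7 to 51.3 in TNF, with a log2 change of 1.77 (SE 0.20, adjusted p = 5.59e-05).

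Of 5 tested secreted antagonists 3 were lower and none higher, against 19.6% and 23.3% of all tested genes. Sfrp5 passed the filter only through its PBS libraries. Of the 4 that passed in both groups, 2 were lower and none higher, against 18.8% and 24.8% of all genes that did so. Sfrp5, which binds Wnt proteins, was at 2.88 to 7.65 in PBS and 0.516 to 0.888 in TNF, with a log2 change of -2.97 (SE 0.33, adjusted p = 4.10e-05), and reached the limit of the filter in 4 PBS and 3 TNF libraries. Dkk3 was at 9.68 to 16.7 in PBS and 2.15 to 4.54 in TNF, with a log2 change of -1.79 (SE 0.23, adjusted p = 1.21e-04), and the membrane-bound inhibitor Apcdd1 had a log2 change of -1.83 (SE 0.21, adjusted p = 5.91e-05). Of 21 other transduction genes 7 were higher (33.3%, against 23.3%) and 3 lower (14.3%, against 19.6%), but with library size alone none was higher by edgeR and 3 were lower, and the median log2 change went from 0.18 to -0.25. Fbxw11 and Btrc, the paralogous ubiquitin ligase subunits that recognise β-catenin for degradation, had log2 changes of opposite sign, 1.07 (SE 0.13, adjusted p = 7.64e-05) and -0.71 (SE 0.15, adjusted p = 0.00302). The kinase gene Csnk1g3 had a log2 change of 0.77 (SE 0.13, adjusted p = 0.00101). Under library size alone the calls of Fbxw11 (0.72, adjusted p = 0.139) and Csnk1g3 (0.40, adjusted p = 0.423) were lost.

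Of 19 other nuclear genes 3 were higher (15.8%, against 23.3% of all tested genes) and 6 lower (31.6%, against 19.6%). The corepressor Ctbp2 was at 14.5 to 16.1 in PBS and 38.0 to 51.5 in TNF, with a log2 change of 1.60 (SE 0.12, adjusted p = 3.42e-06). Ctnnbip1, which blocks the binding of β-catenin to TCF, had a log2 change of -1.19 (SE 0.12, adjusted p = 1.99e-05), and the adaptor Ldb1 one of -1.10 (SE 0.16, adjusted p = 3.61e-04). Of 19 other feedback and target genes 6 were higher (31.6%) and 7 lower (36.8%). They included Cldn2, a tight junction protein of the crypt, at 141 to 166 in PBS and 412 to 613 in TNF, with a log2 change of 1.78 (SE 0.16, adjusted p = 9.43e-06), and the AP-1 subunit Fosl1, with a log2 change of 4.75 (SE 0.51, adjusted p = 3.79e-05) on raw counts of 6, 2, 1 and 4 in PBS and 53, 95, 121 and 13 in TNF. Fosl1 passed the filter only through its TNF libraries, which fixed its direction, and the low PBS counts set the size loosely, so its change is a description. Edn1, also of this list and called lower, passed only through its PBS libraries. Of the 17 genes of this list that passed in both groups, 5 were higher (29.4%) and 6 lower (35.3%). The shares of all genes that did so were 24.8% and 18.8%. Rgmb, described above, was in this list too. With library size alone, 6 of the 79 tested genes were higher (7.59%, against 5.66% of all tested genes) and 19 were lower (24.1%, against 18.1%). These counts too hold genes that passed the filter through a single group.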

How the data were processed

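Per the labels, total RNA (Aurum kit, Bio-Rad) was sequenced after TruSeq Stranded mRNA library preparation. The authors deposited raw counts per Ensembl gene ID for the 8 libraries, with no normalization. The submitters' processing notes name FastQC 0.12, STAR 2.7.10a, DESeq2 and the build mm39 (GRCm39). The counter, its annotation, and its treatment of strand and of reads matching several genes are stated in no source used here. GENCODE release 39 gave symbols for 54749 IDs and none for 665, which stayed in the tests.

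TNF was compared with PBS with edgeR 4.0.16 (quasi-likelihood test, R 4.3.3) on the deposited counts of all genes, with TMM factors, filterByExpr, no covariate and Benjamini-Hochberg adjustment over all tested genes. A gene was called at an adjusted p under 0.05. SEs were derived from the F statistic. On counts simulated for this comparison, 174 of 200 genes changed 2-fold were recovered among 13181 genes, with 11 false calls. The alternatives were RLE scaling, library size alone, TMM without Defa genes, Lyz1 and Itln1, limma-voom (limma 3.58.1), DESeq2 1.42.0, a filter of 1 CPM in 4 or more libraries, no filter beyond 1 count, a stricter threshold of 0.01, a block for the replicate number, Lgr5 placed with the receptors, and leaving out each library. No pair of libraries in a group looked like one library deposited more than once (lowest chi-square per degree of freedom 8.77).

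The genes, lists and tests were chosen with earlier results of these data known. All 37 genes are described, and from each other Wnt or stem cell list up to 3 called genes with the smallest p. No test was run on a list. Count limits of 3 cover counting error only. Promoter windows were read from GRCm39 at the GENCODE canonical start, since the RefSeq windows at hand were on another build. The counts limit scarce genes most: Wnt6, Wnt9b and Tcf7l1 did not pass the filter.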

Additional observations from a re-analysis of the deposited data

Results flagged for a closer look

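In TNF replicate 1, Axin2 was at 25.2 normalized CPM, far from the other 3 TNF libraries at 13.4 to 15, and its gap to the nearest of them took 0.864 of the group's range, which is above the 95% limit of Dixon's test. This was 1 of 69 groups of 4 libraries examined over the genes, where chance alone gives about 1 in 20. TNF replicate 1 remained below all 4 PBS libraries, and without it the log2 fold change of Axin2 was -1.81, adjusted p = 7.75e-06 (edgeR). The reason for the higher value was not tested.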

How the results depend on the processing

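Of the 7 genes called higher only Cd44 kept its call under every alternative, the other 6 losing it under library size alone and under no other. Of the 14 called lower, 11 kept it under every alternative, Fzd5 and Smoc2 lost it under library size alone, Fzd5 and Lef1 at an adjusted p under 0.01, and Lef1 also without single libraries as given above and with the block. Under library size alone the genes called higher were 1 of the 37, 0 of the ligand, export and receptor genes, 1 of the feedback, target and stem cell genes and 6 of the other Wnt genes, and estimates that were not called changed sign for Lrp6 (-0.16), Ctnnb1 (-0.30), Axin1 (-0.0916), Gsk3b (-0.22) and Ephb3 (-0.32). Near-zero estimates also changed sign for Ctnnb1 without PBS replicate 4 (-0.00799) or TNF replicate 2 (-0.0184; range over the fits that left out a library -0.0184 to 0.13), and for Ephb3 with no filter (-0.0108) or without PBS replicate 1 (-0.0242), TNF replicate 1 (-0.0472) or TNF replicate 3 (-0.00376; range -0.0472 to 0.12). At an adjusted p under 0.01, 15 of the other Wnt genes were lower. Leaving out each library in turn gave 7 to 9 higher and 13 to 15 lower of the 37 genes (the 15 count Wnt9b, which entered through its PBS libraries alone and is not read as a call), 1 higher and 3 to 4 lower of the ligand set, 3 to 4 higher and 9 lower of the target set, and 13 to 24 higher and 18 to 24 lower of the other Wnt genes. Equal replicate numbers did not pair the libraries (correlations of their deviations -0.144 to 0.0663). With the replicate number as a block, 7 were higher and 13 lower, Lef1 being lost (-1.69, edgeR adjusted p = 0.0674), the ligand set had 1 and 3, the target set 3 and 9 and the other Wnt genes 17 and 22. Of the 4 PBS libraries, 2 correlated best with the TNF library of their own number. Depth limited Notum, Lef1, Wnt9b and Tert, whose TNF libraries held few counts, and the cause of the shift under library size alone was not tested.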

Other observations

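The ratio of the counts of 2 genes within a library needs no scaling, and it was taken for 3 pairs picked after their values were seen, so no test was made. Bcl9 with Bcl9l and Tcf7l2 with Tcf7 are paralogs, and Lrp5 and Lgr4 are unrelated receptors. Bcl9 counts per Bcl9l count were 1.89 to 2.55 in PBS and 7.64 to 8.55 in TNF. Tcf7l2 counts per Tcf7 count were 1.27 to 2.36 in PBS and 4.09 to 5.06 in TNF, with PBS replicate 1 the highest of its group, and Tcf7 itself was not called by edgeR, at a log2 change of -0.38 (SE 0.17, adjusted p = 0.0876). Lrp5 counts per Lgr4 count were 0.193 to 0.229 in PBS and 0.859 to 0.975 in TNF. In each pair the TNF libraries, replicate 4 included, lay above all PBS libraries.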
